A study of Arabidopsis thaliana with 6 samples.

Results

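Trehalose-6-phosphate synthase (TPS) genes were followed in developing Arabidopsis thaliana seeds of wild type (WT) and of the lines ar21 and i4g1. The family described here has 8 members, TPS1 and the class II genes TPS5 to TPS11, found by their locus identifiers among 33471 loci measured by RNA sequencing. All lines are labelled strain Columbia-0, tissue seeds and 13 days after flowering, with 2 libraries per line, 6 libraries in all, and no treatment is named. The labels do not say which gene is mutated. The name i4g1 is taken here, from knowledge of the study, to stand for loss of eIFiso4G1, a scaffold protein of a plant translation initiation complex, and ar21 for another lesion in that gene. Each library was made from a pool of seeds dissected from tagged siliques. The design text calls the libraries biological replicates, and nothing says how many plants stood behind each pool, so p-values measure the spread between these libraries. Both mutant lines were compared with the same 2 WT libraries, so the comparisons with WT share their controls. In seeds, which hold embryo, endosperm and seed coat, fewer cells of a type and less RNA per cell cannot be told apart.

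Trehalose 6-phosphate is a scarce sugar phosphate that plants use as a signal of sucrose supply. TPS1, the class I enzyme, makes it from UDP-glucose and glucose 6-phosphate, trehalose-6-phosphate phosphatases turn it into trehalose, and trehalase splits trehalose into glucose. Arabidopsis embryos without TPS1 stop developing at the torpedo stage, and trehalose 6-phosphate lowers the activity of the energy-sensing kinase SnRK1. The class II proteins carry both a synthase-like and a phosphatase-like domain, and synthase activity has not been shown for most of them. In seedlings, transcripts of TPS8 to TPS11 are known to be high when sugar is short, and TPS5 transcripts to be raised by sugar.

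The 3 members called in the mutant seeds moved in both directions. TPS1 transcripts fell to about 0.54 of the WT level in ar21 and 0.49 in i4g1, while TPS9 transcripts rose 2.4-fold and 2.59-fold and TPS11 transcripts 1.59-fold and 1.55-fold. The TPS11 call was lost in 7 of 17 alternative analyses in ar21 and 9 of 17 in i4g1. The other 5 members did not pass the test in either line. In ar21 the test called 3 of the 8 members, where it called 14.8% of all 15589 loci tested. In i4g1 it called 3 of the 8, the same genes, where it called 22.4% of all loci tested. Members called higher numbered 2 in each line, beside a background of 8.74% in ar21 and 12.5% in i4g1, and 1 was called lower, beside 6.04% and 9.84%. Without WT 2, ar21 1 or ar21 2 the members called higher in ar21 numbered 1, and so they did in i4g1 without any library other than WT 1. With so few members these shares are a description of the family.

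The gene models (RefSeq, assembly TAIR10.1) set TPS1 apart from the rest. TPS1 (AT1G78580, chr1:29552340-29560912, minus strand) has 17 coding exons and a coding length of 2829 bases. The class II genes have 3 coding exons each and coding lengths of 2556 to 2604 bases. They are TPS5 (AT4G17770, chr4:9876172-9880386, plus), TPS6 (AT1G68020, chr1:25496928-25500584, plus), TPS7 (AT1G06410, chr1:1954674-1958866, plus), TPS8 (AT1G70290, chr1:26470795-26474833, minus), TPS9 (AT1G23870, chr1:8432179-8435656, plus), TPS10 (AT1G60140, chr1:22176934-22181740, minus) and TPS11 (AT2G18700, chr2:8108898-8112010, plus). In aligned coding sequence TPS1 was 53.9% to 57.2% identical to the class II genes, with no shared run over 17 bases. Class II genes were 63.3% to 81.1% identical to each other over 21 pairs. The closest pair was TPS8 and TPS9, at 81.1%, followed by TPS9 and TPS10 at 72.2%.

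TPS8 and TPS9 are shown because they are the closest copies in the family and gave different values below. The lines give 90 bases of coding sequence around their longest shared run of 32 bases, which is in capitals, read 5′ to 3′ along the coding strand. They cover coding positions 2312 to 2401 of TPS8 and 2327 to 2416 of TPS9, counted from 1 at the start codon, and differ at 11 bases.
TPS8: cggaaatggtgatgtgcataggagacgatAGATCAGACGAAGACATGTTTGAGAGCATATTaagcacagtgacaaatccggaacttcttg
TPS9: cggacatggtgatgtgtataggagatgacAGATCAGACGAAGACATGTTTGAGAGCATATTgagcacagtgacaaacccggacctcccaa
The sources used here do not give how reads that match more than 1 locus were counted. Exchange of reads between TPS8 and TPS9 was not tested.

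Reads per library, recovered from the normalised counts, ran from 3418773 in WT 2 to 8435759 in i4g1 2. The nuclear 18S rRNA locus took 40.8% and 60.7% of reads in WT 1 and WT 2, 29.96% and 19.8% in ar21 1 and ar21 2, and 11.5% and 3.90% in i4g1 1 and i4g1 2. Loci of the plastid and mitochondrial genomes took 6.97% and 8.82% of the other reads in WT 1 and WT 2. They took 2.61% and 1.47% in ar21 1 and ar21 2, and 0.993% and 0.300% in i4g1 1 and i4g1 2. Both shares therefore moved with the lines, and their part in the results below was not tested. Without the 18S locus WT 2 was the shallowest library, with 1344947 reads. It held 17 to 277 reads per TPS gene, against 43 or more in each other library. Transcripts of eIFiso4G1 (AT5G57870, chr5:23439498-23443815, plus) stood at 368 and 454 normalised counts in the WT libraries. They stood at 116 and 123 in ar21, and at 24.5 and 45.6 in i4g1, so both lines were below WT. The reading of the name i4g1 gives this direction, and that of ar21 gives none. The levels do not identify the lesion of either line. A normalised count is the read count of a locus divided by the size factor of its library, and all levels are in this unit unless given per kb. Fold changes are differences of log2(normalised count + 1). A gene is called when limma's Benjamini-Hochberg adjusted p over all 15589 loci is under 0.05. Where edgeR or DESeq2 is named below, the test used 5 libraries, without ar21 1, so ar21 had 1 library.

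TPS1, a class I synthase gene, was measured at 720.4 and 776 normalised counts in WT 1 and WT 2. It stood at 399.9 and 411 in ar21 1 and ar21 2, and at 400.3 and 337 in i4g1 1 and i4g1 2. All 4 mutant libraries lay well below both WT libraries, and the lowest WT value was above the highest mutant value by more than the gap within any line. The log2 fold change was -0.88 ± 0.12 (SE) in ar21, with an adjusted p = 0.000897 from limma. In i4g1 it was -1.02 ± 0.12, with an adjusted p = 0.000231. The exact Poisson 95% interval of the level, which covers counting error only, was 664 to 781 in WT 1 and 687 to 873 in WT 2, and these overlap. TPS1 stayed called in all 17 alternative analyses of both comparisons, each time lower, including each omission of a library. The gene overlaps RHM1 on the opposite strand over 99 bases and an opposite-strand long noncoding RNA over 429 bases. RHM1 had 1.74 to 14.0 normalised counts, and the noncoding RNA was not among the measured loci. The library kit does not mark the strand, so reads of TPS1 and of these neighbours cannot be told apart in the overlaps.

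TPS9, a class II gene, stood at 52.4 and 47.6 normalised counts in WT, 121 and 122 in ar21, and 133 and 129 in i4g1. The replicates of each line were close, and all 4 mutant libraries lay above both WT libraries with a wide gap. The log2 fold change was 1.26 ± 0.17 in ar21 (adjusted p = 0.000589) and 1.37 ± 0.17 in i4g1 (adjusted p = 0.000219). The 95% interval of the fold was 1.87 to 3.07 in ar21 and 2.02 to 3.33 in i4g1. The WT values rest on 43 and 17 reads, with exact Poisson 95% intervals of 37.9 to 70.6 and 27.7 to 76.2 normalised counts, and the lowest mutant interval started at 99.97. TPS9 stayed called in i4g1 in all 17 alternatives and in ar21 in 16 of 17. The exception was DESeq2 on the 5 libraries with recovered reads, which hold 1 ar21 library, at a log2 fold change of 1.26.

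TPS11, a class II gene known for a part in defence against aphids, stood at 112 and 81.2 normalised counts in WT, 145 and 161 in ar21, and 137 and 159.7 in i4g1. The 4 mutant libraries were above both WT libraries, but WT 1 came closer to them than WT 2 did. The log2 fold change was 0.67 ± 0.18 in ar21 (adjusted p = 0.0278) and 0.63 ± 0.18 in i4g1 (adjusted p = 0.0274). These calls were lost when some single libraries were left out. Without WT 2 the log2 fold change was 0.44 in ar21 (adjusted p = 0.134) and 0.40 in i4g1 (adjusted p = 0.146), and neither passed. The ar21 call was also lost without ar21 1 (adjusted p = 0.128) or ar21 2 (0.195). The i4g1 call was also lost without i4g1 1 (log2 fold change 0.74) or i4g1 2 (0.52). It was lost too without ar21 1 or ar21 2. The log2 fold change of i4g1 against WT does not use these ar21 libraries and stayed at 0.63. The call held in 10 of 17 alternatives in ar21 and 8 of 17 in i4g1, with a log2 fold change of 0.40 to 0.90 across both.

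**Figure D1:**
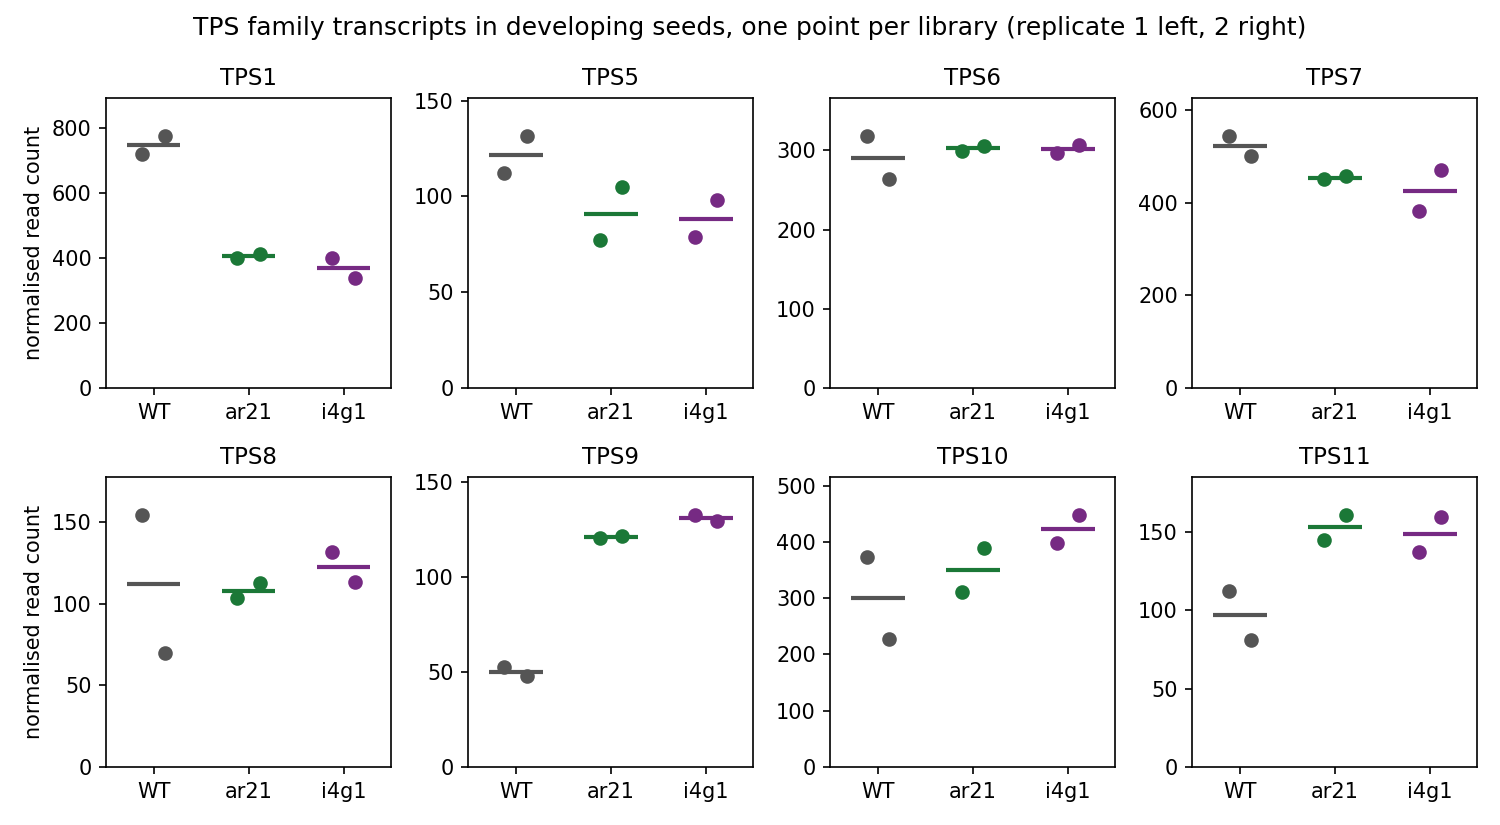
Normalised read count of each of the 8 TPS genes in each of the 6 libraries, with 1 panel per gene and a y axis from 0. Points are libraries, replicate 1 left and replicate 2 right, and bars are line means. TPS1 drops from 720.4 or more in WT to 411 or less in the mutants, TPS9 goes from 52.4 or less to 121 or more, and the WT libraries of TPS8 and TPS10 lie far apart.

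TPS7, the class II gene with the highest level, stood at 544 and 501 in WT, 450.1 and 457 in ar21, and 382 and 469.5 in i4g1. All 4 mutant libraries were below both WT libraries by a small margin. The log2 fold change was -0.20 ± 0.13 in ar21 (adjusted p = 0.327) and -0.30 ± 0.13 in i4g1 (adjusted p = 0.117), so TPS7 did not pass. TPS5, known for a role in heat tolerance, stood at 112 and 132 in WT, 77.4 and 105 in ar21, and 78.7 and 98.1 in i4g1. It too was lower in every mutant library without passing, at log2 fold changes of -0.43 ± 0.20 (adjusted p = 0.171) and -0.46 ± 0.20 (adjusted p = 0.115). TPS6, known for a role in epidermal cell shape, stood at 318 and 263 in WT, 299 and 305 in ar21, and 296 and 306 in i4g1. The mutant values of TPS6 lay between the WT values. Its log2 fold change was 0.06 in both comparisons, with a 95% interval of -0.22 to 0.35 in ar21 and -0.23 to 0.34 in i4g1.

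TPS8 and TPS10 were hard to place against WT because the WT libraries disagreed. TPS8 stood at 155 and 70.0 normalised counts in WT, 103 and 113 in ar21, and 132 and 114 in i4g1. WT 1 was the highest and WT 2 the lowest library of all, and all mutant values fell between them. TPS10 stood at 373 and 227 in WT, 310.5 and 389 in ar21, and 398 and 449 in i4g1, with WT 2 again the lowest. Both i4g1 libraries lay above both WT libraries, and the ar21 libraries lay on both sides of WT 1. The 95% interval of the log2 fold change of TPS10 in i4g1 was 0.10 to 0.97, but TPS10 was not called. The exact Poisson 95% intervals of the WT libraries did not overlap for either gene, at 129 to 184 against 45.3 to 103 for TPS8 and 332 to 417 against 180.1 to 282 for TPS10. The log2 fold change of TPS8 was 0.05 ± 0.28 in ar21 and 0.23 ± 0.28 in i4g1, and that of TPS10 was 0.26 ± 0.20 and 0.54 ± 0.20, with adjusted p of 0.0753 or more. Leaving out WT 1 brought TPS10 past the threshold in ar21 (0.61, adjusted p = 0.0410) and i4g1 (0.89, adjusted p = 0.00621), and TPS8 in i4g1 (0.80, adjusted p = 0.0159). Leaving out WT 2 turned the log2 fold change of TPS8 to -0.52 in ar21 and -0.34 in i4g1, and took that of TPS10 to -0.10 in ar21 (adjusted p = 0.748) and 0.18 in i4g1 (adjusted p = 0.502).

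**Figure D2:**
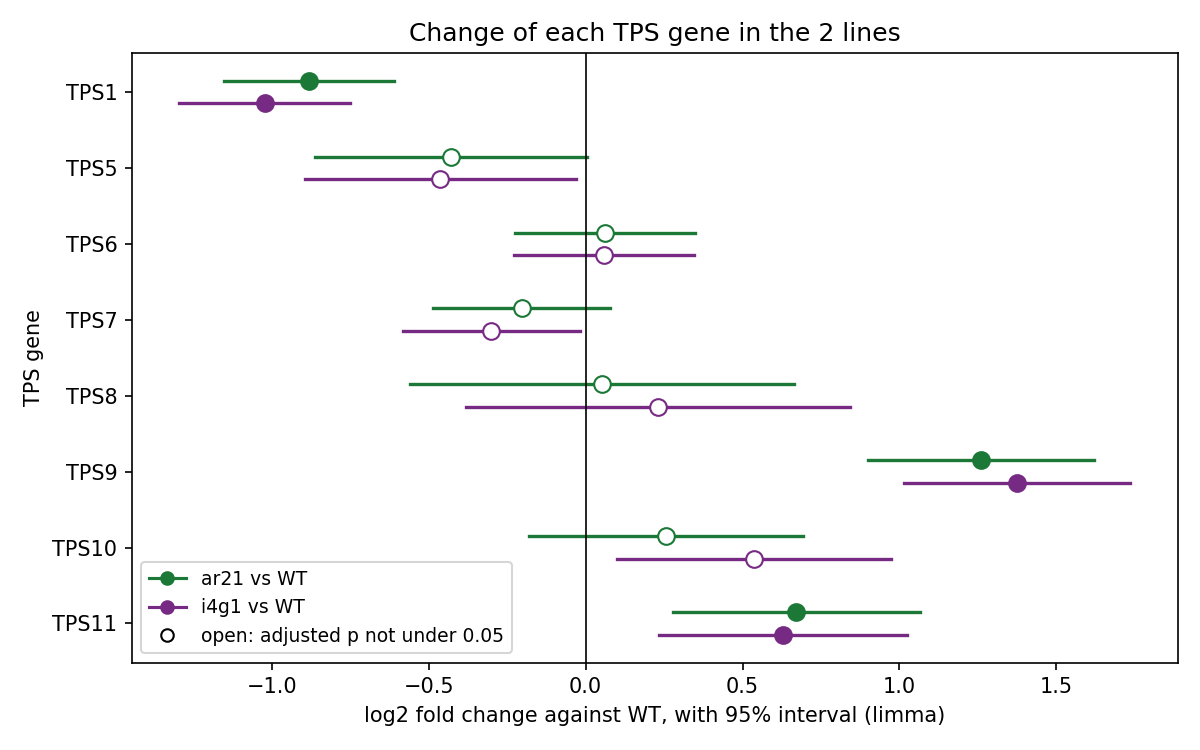
Log2 fold change of each TPS gene against WT, ar21 in green and i4g1 in purple, with 95% intervals from limma as bars. Filled points have an adjusted p under 0.05, and these are TPS1 below 0 and TPS9 and TPS11 above 0 in both lines.

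The direct comparison of the mutant lines asked whether the family differs between them. None of the 8 TPS genes was called between ar21 and i4g1 by limma, and none had an unadjusted p under 0.05 or was called by edgeR or DESeq2. The test called 0.282% of all loci in that comparison. The log2 difference, ar21 minus i4g1, ran from -0.28 for TPS10 to 0.14 for TPS1. The 95% interval for TPS1 was -0.13 to 0.41 and that for TPS9 was -0.47 to 0.25. Members whose libraries did not overlap between the mutants numbered 3 of 8, beside 42.4% of all loci. Against WT, 5 of 8 members did not overlap in ar21, beside 58.9% of all loci, and 6 of 8 in i4g1, beside 60.2%, so these shares are near the background. The median log2 fold change over the 8 members was 0.06 in ar21 and 0.14 in i4g1, beside 0.01 over all loci in each.

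The summed level of the family was slightly lower in every mutant library than in either WT library, and the TPS1 share of it was lower too, both untested. Normalised counts of the 8 genes summed to 2387 and 2097 in WT, 1906 and 2063 in ar21, and 1957 and 2062 in i4g1. The lowest WT sum was above the highest mutant sum by less than the gap within any line. TPS1 made up 30.2% and 37.0% of that sum in WT, 21.0% and 19.9% in ar21, and 20.5% and 16.3% in i4g1. The 7 class II genes summed to 1666 and 1322 in WT, and to between 1506 and 1725 in the mutants. Class II sums of the mutants thus lay on both sides of that of WT 1. These sums are not corrected for gene length.

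Levels per kb of exon allow genes to be set beside each other. In WT the levels were 141.8 normalised counts per kb for TPS7 and 140.1 for TPS1, 81.5 for TPS6 and 68.8 for TPS10, 35.8 for TPS5, 33.6 for TPS8 and 32.8 for TPS11, and 16.8 for TPS9. TPS7 and TPS1 overlapped between libraries, as did TPS6 and TPS10, and as did neighbours among TPS5, TPS8 and TPS11, while TPS9 was lowest in both libraries. In ar21 TPS7 stood alone at 123.1, TPS6 (84.7), TPS10 (80.2) and TPS1 (75.9) overlapped with their neighbours, and TPS11 (51.9), TPS9 (40.7), TPS8 (32.3) and TPS5 (26.7) followed without overlap. In i4g1 the order was TPS7 (115.6), TPS10 (97.0), TPS6 (84.4), TPS1 (69.0), TPS11 (50.4), TPS9 (44.1), TPS8 (36.7) and TPS5 (26.0), and no neighbours overlapped. TPS9 thus went from last place per kb in WT to above TPS8 and TPS5 in both mutants, and TPS1 from level with TPS7 to below it. The order depends on the length used, since the exons of TPS1 cover 5341 bases and its coding sequence 2829. Per kb of coding length TPS1 was above TPS7 in WT, at 264 against 204, and below it in ar21, at 143 against 177, and in i4g1, at 130.3 against 167. TPS9 was last in WT and above TPS8 and TPS5 in both mutants by mean on this scale too, with overlap between TPS9 and TPS8 in i4g1. Differences between genes were not tested, and with 2 libraries per line, lack of overlap is a weak criterion.

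**Figure D3:**
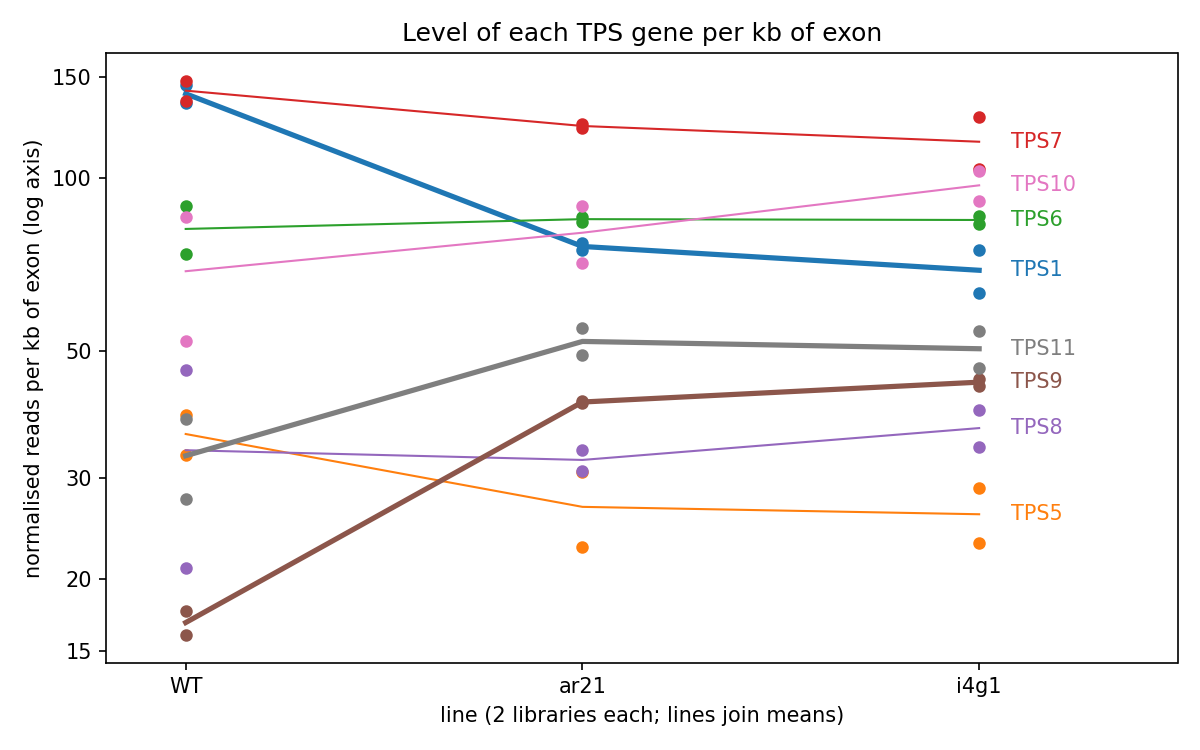
Normalised reads per kb of exon of each TPS gene in WT, ar21 and i4g1, on a log axis. Points are libraries and lines join line means, with TPS1, TPS9 and TPS11 drawn thick. TPS1 drops from level with TPS7 in WT to below it in the mutants, and TPS9 leaves the bottom. Per kb of coding length TPS1 would stand above TPS7 in WT.

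Across the 6 libraries the members' correlations are given as a description, since the libraries share lines and depth. On the log2 scale 6 of the 28 pairs had a Pearson r beyond 0.8 in either direction. TPS1 ran opposite to TPS9 (-0.98) and to TPS11 (-0.92), and TPS9 and TPS11 ran together (0.91), all of them genes called between the lines. TPS6 and TPS8 (0.90), TPS6 and TPS10 (0.84) and TPS10 and TPS11 (0.82) also ran together. In TPS6, TPS8 and TPS10 WT 2 was the lowest library, and the gap between the WT libraries enters these values. Among the 15581 other loci, those most like TPS1 were RIE1 (AT2G01735), a RING finger protein gene needed for seed development, at r 0.997, ATDSI-1VOC (AT1G07645) at 0.997, and AT4G00270 at 0.996. An r over 0.95 with TPS1 was found for 372 loci, so the pattern is a common one. Those most like TPS7 were AMSH2 (AT1G10600) at 0.998, the heat shock factor gene ATHSFA1E (AT3G02990) at 0.994 and the protein kinase gene CPK33 (AT1G50700) at 0.994, and 93 loci were over 0.95.

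The 250 bases upstream of the annotated gene start are given for TPS1, TPS9 and TPS11, the members that were called (RefSeq, TAIR10.1, 5′ to 3′ on the strand of the gene). Capitals mark the motifs named below. They lie at chr1:29560913-29561162 on the minus strand for TPS1, chr1:8431929-8432178 on the plus strand for TPS9 and chr2:8108648-8108897 on the plus strand for TPS11.
TPS1: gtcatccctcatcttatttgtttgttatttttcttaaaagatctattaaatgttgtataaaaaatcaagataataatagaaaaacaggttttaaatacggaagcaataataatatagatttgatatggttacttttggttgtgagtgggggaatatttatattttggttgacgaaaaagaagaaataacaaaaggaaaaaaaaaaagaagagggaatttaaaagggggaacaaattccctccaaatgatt
TPS9: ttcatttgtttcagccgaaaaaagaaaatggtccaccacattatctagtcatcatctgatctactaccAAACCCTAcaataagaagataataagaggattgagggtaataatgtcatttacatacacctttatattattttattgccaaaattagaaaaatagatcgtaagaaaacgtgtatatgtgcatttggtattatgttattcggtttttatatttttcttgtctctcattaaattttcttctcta
TPS11: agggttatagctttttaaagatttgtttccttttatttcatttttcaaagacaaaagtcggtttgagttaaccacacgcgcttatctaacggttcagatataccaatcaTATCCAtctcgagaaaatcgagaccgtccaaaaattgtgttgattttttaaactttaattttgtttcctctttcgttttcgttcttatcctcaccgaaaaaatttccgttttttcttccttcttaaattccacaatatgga
Both strands were searched for 5 motifs in all 8 members and in 27443 upstream windows of the same length. TATCCA, known from rice amylase genes that sugar starvation induces, was found in TPS11 at 141 bases upstream, and also in TPS6 and TPS10, which were not called, where 13.6% of all windows hold it. AAACCCTA, the telo box, was found in TPS9 at 182 bases upstream and in TPS10 at 178, where 4.49% of all windows hold it. CACGTG, the G-box, was found in TPS6 (6.49% of all windows). TGGGCC, the site II element (13.7% of all windows), and AAAATATCT, the evening element (2.36%), were found in no member. TPS1 held none of the 5 motifs in this window, and no motif was shared by TPS9 and TPS11. The longest run that TPS8 and TPS9 share upstream was 12 bases. The motifs do not overlap each other, and a match is a description of letters only.

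Other genes of trehalose metabolism were low or uncalled, except trehalase. The other class I genes were TPS2, TPS3 and TPS4. TPS2 stood at 23.2 and 22.4 normalised counts in WT, 36.2 and 43.2 in ar21, and 22.7 and 33.4 in i4g1. It was not called, at log2 fold changes of 0.77 ± 0.29 in ar21 and 0.26 ± 0.29 in i4g1. In ar21 its unadjusted p from limma was 0.0227 and its adjusted p 0.101. TPS4 was at 3.91 to 10.5, below the level filter, and TPS3 was at 0 in all libraries. Of 10 trehalose-6-phosphate phosphatase genes, 4 passed the filter on low values, with means over the libraries from 12.1 to 159 normalised counts. Of these 4, limma called 0 in either line, where it called 14.8% of all loci in ar21 and 22.4% in i4g1. With 4 genes that count is a description. At an unadjusted p under 0.05 limma had 1 higher in ar21, and 1 higher and 1 lower in i4g1, and edgeR and DESeq2 called 0. The phosphatase gene with the highest level, TPPJ, stood at 155 and 101 in WT, 181 and 173 in ar21, and 193 and 149 in i4g1, with log2 fold changes of 0.50 ± 0.20 and 0.44 ± 0.20. Without WT 1 it passed in ar21 (0.80, adjusted p = 0.0217) and i4g1 (0.75, adjusted p = 0.0204), as did TPPG, named after its values were seen, in i4g1 (-0.68, adjusted p = 0.0249). TRE1 (AT4G24040), the trehalase gene, rose in both lines. It stood at 149.9 and 134 in WT, 365 and 314 in ar21, and 328 and 336 in i4g1, with every mutant library above 2 times the higher WT value. The log2 fold change was 1.25 ± 0.13 in ar21 (adjusted p = 0.000152) and 1.22 ± 0.13 in i4g1 (adjusted p = 0.000133), and no alternative lost either call.

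SnRK1, the kinase that trehalose 6-phosphate restrains, was followed through 7 subunit genes. In each line 2 of 7 were called higher, beside 8.74% of all loci in ar21 and 12.5% in i4g1, and 0 lower, beside 6.04% and 9.84%. In either direction the test called 14.8% and 22.4% of all loci, and with 7 genes the counts are a description. The median log2 fold change was 0.13 in ar21 and 0.20 in i4g1. Both called genes encode regulatory subunits. The regulatory subunit genes KINbeta2, KINbeta3 and KINbetagamma were not called, at 0.13, 0.58 and -0.14 in ar21 and 0.14, 0.49 and 0.03 in i4g1. KINgamma rose from 82.9 and 95.2 in WT to 219 and 219.6 in ar21 and 295 and 236 in i4g1, a log2 fold change of 1.29 ± 0.15 (adjusted p = 0.000314) and 1.56 ± 0.15 (adjusted p = 7.18e-05). KINbeta1 rose from 63.4 and 36.4 to 101 and 102 in ar21 and 108 and 109 in i4g1, by 1.07 ± 0.23 (adjusted p = 0.0103) and 1.16 ± 0.23 (adjusted p = 0.00451). The ar21 call of KINbeta1 was lost without ar21 1 (adjusted p = 0.0936) or ar21 2 (0.0808), with edgeR (0.0852), with DESeq2 (0.371) and without the intensity trend (0.0756), and its i4g1 call with DESeq2 (0.0680). In ar21 edgeR and DESeq2 each called 1 of 7 higher, and in i4g1 edgeR called 2 and DESeq2 1. At an unadjusted p under 0.05 limma had 0 lower in either line, and edgeR and DESeq2 called 0 lower. The catalytic subunit gene KIN10, the highest of the 7, was at log2 fold changes of 0.06 ± 0.15 and 0.20 ± 0.15 and was not called.

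A list of 11 genes known to be induced by SnRK1 or by sugar starvation was read beside the family. The list was drawn up with results of these data known, so its direction is no independent support. Of 10 that passed the filter, 7 were called higher and 1 lower in each line, beside 8.74% and 6.04% of all loci in ar21 and 12.5% and 9.84% in i4g1. DESeq2 called 4 higher in ar21 and 6 in i4g1, and edgeR 7 in each. The 10 had a median log2 fold change of 1.34 in ar21 and 1.43 in i4g1. DRM2, a dormancy-associated gene, was at 7.31 and 5.6 in WT, 100.5 and 87.1 in ar21, and 177 and 138 in i4g1, a log2 fold change of 3.67 ± 0.24 (adjusted p = 1.23e-05) and 4.41 ± 0.24 (adjusted p = 2.82e-06). SEN5 rose by 2.75 ± 0.20 and 2.97 ± 0.20, and the beta-galactosidase gene BGAL4 by 2.13 ± 0.19 and 2.26 ± 0.19, with adjusted p of 4.62e-05 or less for both genes. DIN6, an asparagine synthetase gene, had 2 reads in WT 1 and 0 in WT 2, against 33.2 and 21.2 normalised counts in ar21 and 14.9 and 13.9 in i4g1, and was called in both lines (adjusted p = 0.00206 and 0.00522). The ar21 call of DIN6 was lost without ar21 1 (adjusted p = 0.0632). THA1, a threonine aldolase gene named after its values were seen as the exception in the list, fell by 0.56 ± 0.14 in ar21 (adjusted p = 0.0212) and by 0.47 ± 0.14 in i4g1 (adjusted p = 0.0338). Its ar21 call was lost without WT 1, WT 2, ar21 1 or ar21 2, with adjusted p from 0.0519 to 0.152, and its i4g1 call without any library other than i4g1 1, from 0.0643 to 0.233. ProDH1, a proline dehydrogenase gene and the highest in the list, was at log2 fold changes of -0.04 ± 0.14 and 0.00 ± 0.14.

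Of 9 listed bZIP transcription factor genes of groups C and S1, which SnRK1 is known to act through, 6 were tested. The other 3, bZIP1, bZIP11 and bZIP53, were not among the measured loci. In ar21 limma called 1 of 6 higher and 0 lower, beside 8.74% and 6.04% of all loci, and at an unadjusted p under 0.05 it had 1 lower, while edgeR and DESeq2 called 0. In i4g1 it called 1 of 6 higher and 0 lower, beside 12.5% and 9.84%, with 2 and 1 at an unadjusted p under 0.05, edgeR calling 1 and DESeq2 0. A single gene of 6 is near these backgrounds. The gene called in ar21 was bZIP63, a known SnRK1 target, at 9.75 and 5.6 in WT, 41.2 and 24.9 in ar21, and 15.7 and 21.7 in i4g1. Its log2 fold change was 1.97 ± 0.42 in ar21 (adjusted p = 0.00867, and 0.166 without ar21 1) and 1.21 ± 0.42 in i4g1 (adjusted p = 0.0565, and 0.0284 without WT 1). In i4g1 bZIP9 was called at 0.59 ± 0.16 (adjusted p = 0.0185), and lost without WT 2 (0.0943) or i4g1 1 (0.161). The highest gene of the list, bZIP44, was at -0.15 ± 0.14 and -0.28 ± 0.14. The median log2 fold change of the 6 was 0.12 in ar21 and 0.07 in i4g1.

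Among genes that make or use sucrose and UDP-glucose, a substrate of TPS1, more were called lower than higher. Of 14 tested of 16 listed, 1 was called higher and 7 lower in ar21, beside backgrounds of 8.74% and 6.04%, and 1 higher and 5 lower in i4g1, beside 12.5% and 9.84%. The median log2 fold change was -0.50 in ar21 and -0.34 in i4g1. Each alternative named next also lowered the number of all loci called lower. Without the intensity trend that number went from 941 to 245 in ar21 and from 1534 to 842 in i4g1. The count of 7 fell to 3 without WT 1, 1 without ar21 1 and 2 without ar21 2, and the count of 5 fell to 3 without WT 2 or i4g1 1. In ar21 it also fell to 3 without the intensity trend, 2 with edgeR and 1 with DESeq2, and in i4g1 to 3 without the trend or with DESeq2. SUS3, a sucrose synthase gene, fell from 818 and 694 in WT to 377 and 368 in ar21 and 273 and 232 in i4g1, by 1.01 ± 0.13 (adjusted p = 0.000561) and 1.58 ± 0.13 (adjusted p = 2.95e-05) on the log2 scale. SUS5, another sucrose synthase gene, fell by 1.32 ± 0.31 (adjusted p = 0.0150) and 1.46 ± 0.31 (adjusted p = 0.00623), and the sucrose-phosphate phosphatase gene SPP3b by 0.84 ± 0.16 (adjusted p = 0.00433) and 1.02 ± 0.16 (adjusted p = 0.000941). In ar21 the call of SUS5 was lost without WT 1 (adjusted p = 0.0570), ar21 1 (0.152) or ar21 2 (0.0655), and that of SPP3b without ar21 1 (0.0543) or ar21 2 (0.0506). SUS1, a sucrose synthase gene known to respond to low oxygen, rose from 212 and 157 to 329 and 319.9 in ar21 and 352 and 440.4 in i4g1, by 0.83 ± 0.16 (adjusted p = 0.00591, and 0.0730 without ar21 1) and 1.11 ± 0.16 (adjusted p = 0.000691). SUS2, the seed sucrose synthase gene and the highest of the list, was at 0.05 ± 0.15 and 0.12 ± 0.15 and was not called.

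**Figure D4:**
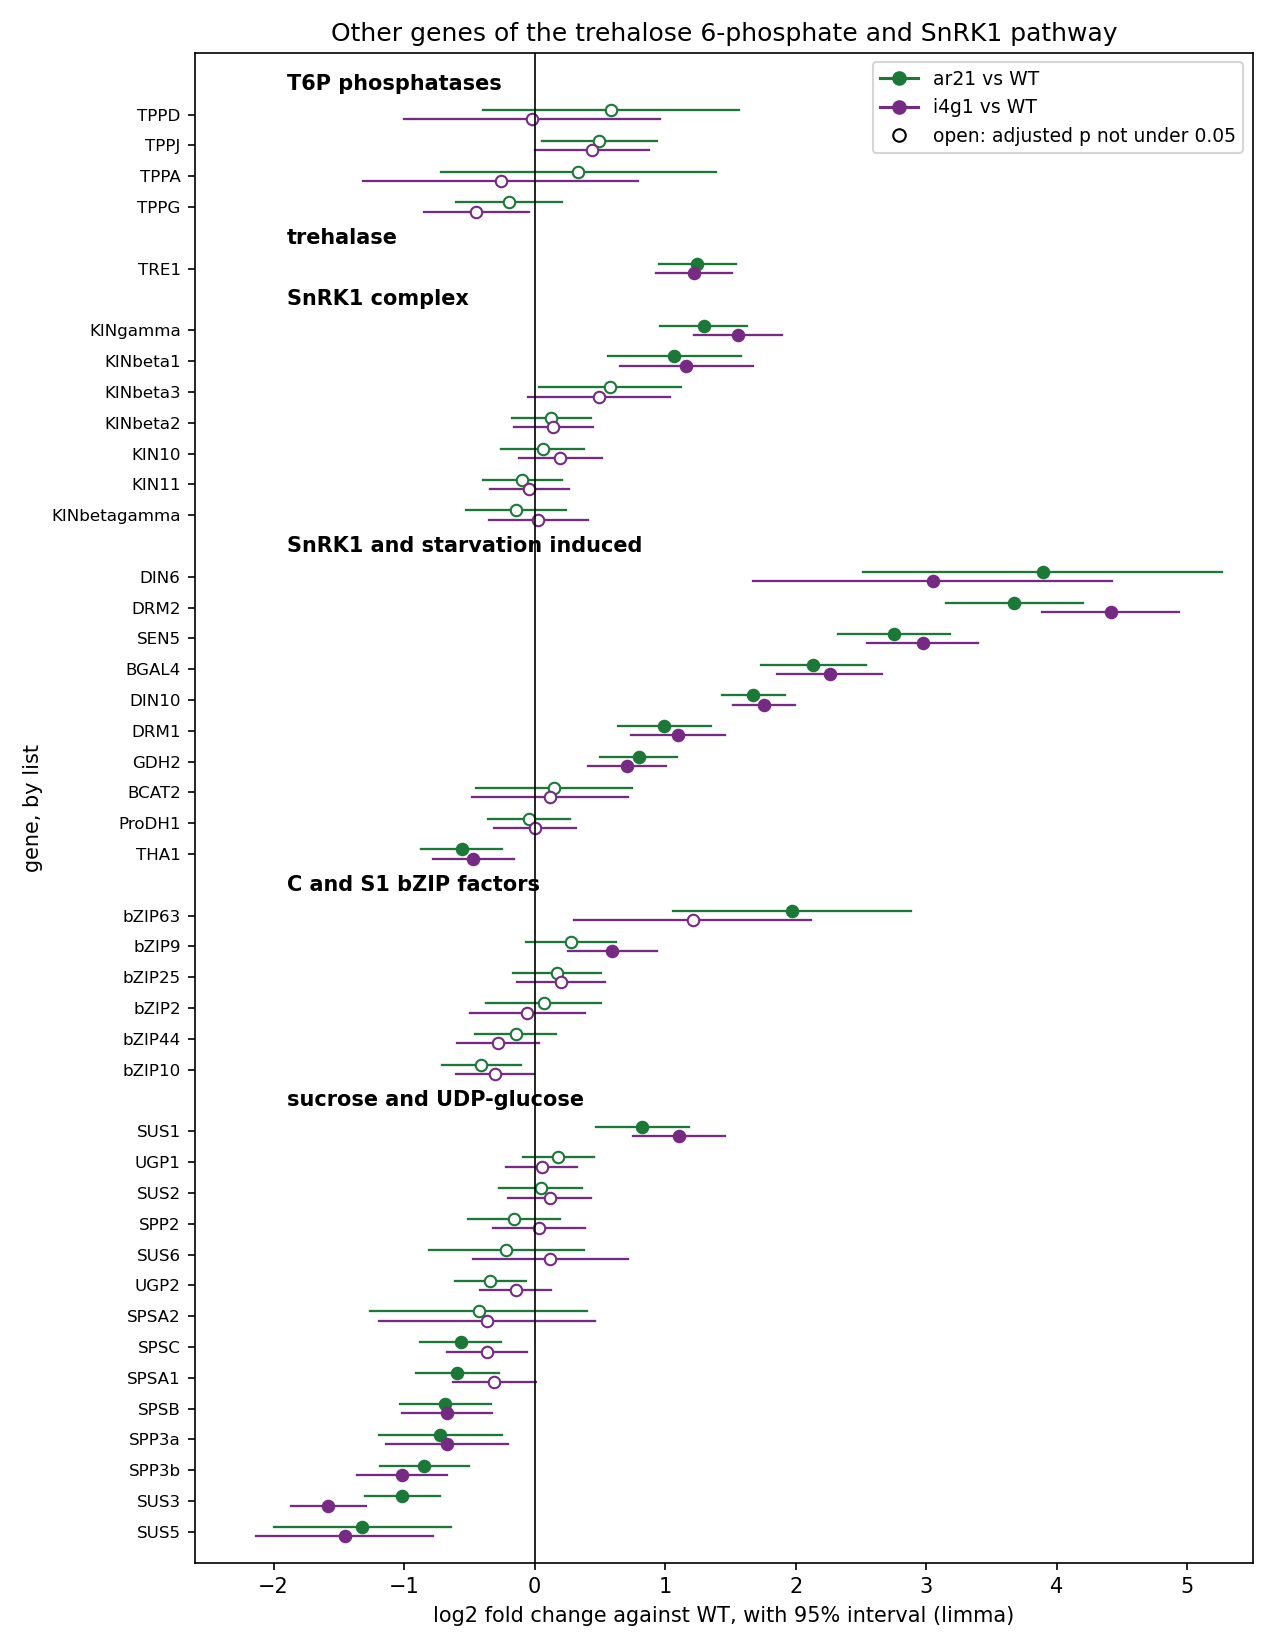
Log2 fold change against WT of the tested genes of trehalose metabolism, the SnRK1 complex, SnRK1 and starvation induced genes, bZIP factors, and sucrose and UDP-glucose metabolism, ar21 in green and i4g1 in purple, with 95% intervals from limma. Filled points have an adjusted p under 0.05. TRE1, KINgamma and 7 induced genes lie above 0, SUS3 below it, and the position of DIN6 depends on the pseudocount of 1 because its WT libraries hold 2 and 0 reads.

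Markers of seed tissues were read beside the family. Embryo storage markers summed to 167049 and 181057 normalised counts in WT, 143318 and 158688 in ar21, and 159159 and 221919 in i4g1, with 6 markers, all above 0 somewhere. The storage genes CRB, OLE1 and PAP85 carried that sum, while CRC and SESA1 were at or near 0 and CRA1 at 10.4 to 47.6. The sum therefore describes CRB, OLE1 and PAP85. Whether the low values of CRA1, CRC and SESA1 reflect transcript levels or read assignment was not tested. Endosperm markers (4, with EXPA2 at 0), a sum carried by EPR1 alone, were at 81388 to 101506 in WT, 82235 to 107225 in ar21 and 81648 to 104729 in i4g1. The endosperm regulator gene ZOU was low but higher in every mutant library, at 9.75 and 14.0 in WT, 34.2 and 21.2 in ar21, and 31.5 and 19.96 in i4g1, and was not called (log2 fold change 1.14, adjusted p = 0.0682, and 1.04, adjusted p = 0.0731). Of 3 tested, MYB118, an endosperm regulator, was called higher, by 0.80 in ar21 and 0.71 in i4g1 on the log2 scale. Its ar21 call was lost without ar21 1 (adjusted p = 0.0838) or ar21 2 (0.0941), and its i4g1 call without WT 1 (0.0576) or i4g1 1 (0.0706). Seed coat markers (6, with TT10 carrying the sum) summed to 3993 to 4336 in WT, 3868 to 4092 in ar21 and 3484 to 3828 in i4g1. Of 5 tested MUM2, a mucilage galactosidase gene, was called higher, by 2.70 in ar21 and 2.32 in i4g1. Over all loci limma called 8.74% higher in ar21 and 12.5% in i4g1, so the single calls of MYB118 and MUM2 are a description. Markers of silique wall and shoot (6, with IND at 0 and MYB60 carrying the sum) summed to 328 to 403 in WT, 266 to 311 in ar21 and 349.6 to 361 in i4g1. The summed ranges of the mutant lines overlap those of WT for embryo storage in i4g1, for endosperm in both lines, for seed coat in ar21, and for silique wall and shoot in i4g1. Embryo storage in ar21, seed coat in i4g1 and silique wall and shoot in ar21 lay below WT. The part of these differences in the TPS values was not tested.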

How the data were processed

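The files used are 1 table of RNA-seq signal for 6 libraries of developing seeds. Its values are the authors' normalised counts, a signal in which each library's read counts were divided by a size factor of its own (100% of nonzero values were whole multiples of a library's step, within a tolerance of 0.001). Per the submitters' processing notes, the tools were DESeq2 1.12.4, HTSeq 0.6.0, StringTie 1.0.3 and STAR 2.4.0j with TAIR10. Their roles and settings, and the treatment of strand, remain not given in the sources used here. Rows of a locus were summed (34001 to 33471), and each TPS gene has 1 row. limma 3.58.1 (R 4.3.3) was run on log2(normalised count + 1) with 1 mean per line, an intensity trend and a mean of at least 10 (15589 loci, all 8 TPS genes among them), two-sided, with Benjamini-Hochberg adjustment over all loci. The fit has 3 residual and 9.06 prior degrees of freedom. edgeR 4.0.16 and DESeq2 1.42.0 ran as alternatives on 5 libraries, so their comparisons of ar21 rest on 1 ar21 library. ar21 1 was kept out of these count tests because its step lies close to 1, although its values are whole multiples of it, and its reads were used for read shares and counting intervals. The members, gene lists, motifs and tests were chosen with earlier results of these data known. Named genes are the TPS genes, the line check, up to 4 called genes per list and comparison by size of change, the highest gene of each list, and the 3 loci most like TPS1 and TPS7. Gene models, coding sequences and upstream windows come from RefSeq (TAIR10.1, Biopython 1.88 for alignments). Protein sequences were not used here.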

Additional observations from a re-analysis of the deposited data

How the results depend on the processing

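Across scaling, pseudocount, filter, test and library choices, TPS1 kept its call in both lines (log2 fold change -0.93 to -0.83 in ar21 and -1.15 to -0.90 in i4g1) and TPS9 kept its call except in ar21 with DESeq2, while TPS11 lost it in 7 of 17 alternatives in ar21 and 9 of 17 in i4g1. TPS genes called higher in ar21 numbered 2, and 1 with no filter, without the intensity trend or with edgeR, 0 with DESeq2, and 1 to 3 when a library was left out. In i4g1 they numbered 2, and 1 with scaling by nuclear totals, without the trend, with edgeR or with DESeq2, and 1 to 4 when a library was left out. Loci called in ar21 numbered 2304, against 676 without the trend, 633 with edgeR, 369 with DESeq2 and 523 to 2386 with a library left out. In i4g1 they numbered 3485, against 1784 without the trend, 1293 with DESeq2 and 2051 to 3194 with a library left out. Between ar21 and i4g1 they numbered 44, against 2 with no filter or edgeR, 0 without the trend, 7 with DESeq2, 82 with a replicate block and 2 to 159 with a library left out. The edgeR and DESeq2 counts come from 5 libraries, with 1 of ar21, so tool and sample size changed together. The cause of the other changes was not tested. Scaling by nuclear totals moved the split of i4g1 calls from 1951 higher of 3485 to 1438 higher of 3262, and it moved the split of the 44 between the mutants from 18 higher to 19 higher of 35. Mean level per kb of exon over all libraries was 95.01 for TPS1, 29.5 for TPS5, 83.6 for TPS6, 126.8 for TPS7, 34.2 for TPS8 and 82.0 for TPS10. Per kb of coding length it was 179, 38.8, 115, 183, 44.5 and 138, and per kb of the longest transcript that of TPS6 was 90.9.

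Replicate numbers only name the libraries. Deviations of same-numbered libraries correlated at -0.08 for WT and ar21, -0.03 for WT and i4g1 and 0.12 for ar21 and i4g1 over 15589 loci, with 2 numbers per line. With a replicate block 2457 loci were called in ar21 and 3672 in i4g1, and the calls of the TPS genes did not change.

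Depth limits the low members most. In WT 2, TPS9 rests on 17 reads, a counting error of 24.3%, and a change of that size lies within the counting error of that library.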
